A study of Homo sapiens with 12 samples.

Results

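The replication-dependent histone genes were followed in K562 cells, human erythroleukemia cells driven by the BCR-ABL1 fusion kinase. They were taken by name and type: every protein-coding gene of the count table whose symbol begins with HIST1H, HIST2H, HIST3H or HIST4H. This gave 71 of 58735 genes. By the letters after the cluster name, 6 encode the linker histone H1, 17 encode H2A, 18 encode H2B, 15 encode H3 and 15 encode H4. The HIST1 cluster on chromosome 6 holds 55 of them, the HIST2 cluster on chromosome 1 holds 12, the HIST3 cluster on chromosome 1 holds 3 and HIST4H4 stands alone.

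Total RNA was sequenced from 4 groups of 3 biological replicates each. Mock DMSO cells received vehicle only, and mock nilotinib cells received 0.1 μM nilotinib, an inhibitor of the ABL kinases. Hemin DMSO cells received vehicle and 50 μM hemin, an inducer of erythroid differentiation in this line, for 24 h. Hemin nilotinib cells received 0.1 μM nilotinib first and then 50 μM hemin, also for 24 h. The mock libraries carry 0 h and the hemin libraries 24 h. Hemin and the additional time in culture therefore cannot be told apart in the comparisons of hemin with mock. The same holds for the difference of the nilotinib effects with and without hemin. The length of exposure to nilotinib may differ there too. Each library held between 33457078 and 50506990 counts assigned to genes.

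Replication-dependent histone genes supply the nucleosome proteins that are needed when DNA is copied. They lie in clusters, mostly lack introns, and are switched on at the entry into S phase by the coactivator NPAT. Their mRNAs are unusual in that they normally end in a short stem-loop that is bound by SLBP, with no poly(A) tail. Some of the same genes can also be read further, to a poly(A) site downstream, and such transcripts are known from cells that differentiate or leave the cell cycle. In bulk RNA, more cells in S phase and more histone mRNA per cell cannot be told apart.

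The stem-loop is the part of these mRNAs that sets them apart from the others, so the sites of 9 members are shown. Each stretch of 30 bases is read 5′ to 3′ along the mRNA from the GENCODE 29 transcript, lies after the stop codon, and has the 16 bases of the stem-loop in capitals. Coordinates are on GRCh38.
HIST1H2AC, chr6:26124664-26124693, plus strand: ccaaaGGCTCTTTTCAGAGCCcccctaccg
HIST1H2AG, chr6:27133510-27133539, plus strand: ccaacGGCTCTTTTCAGGGCCacccacgtc
HIST1H2BF, chr6:26199963-26199992, plus strand: ccaaaGGCTCTTTTAAGAGCCacccacttt
HIST2H2BE, chr1:149886179-149886208, minus strand: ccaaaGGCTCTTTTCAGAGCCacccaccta
HIST1H3E, chr6:26225591-26225620, plus strand: ccaaaGGCTCTTCTCAGAGCCaaccacttt
HIST1H3H, chr6:27810511-27810540, plus strand: ccaaaGGCTCTTTTCAGAGCCacccacatg
HIST1H4B, chr6:26026892-26026921, minus strand: ccaatGGCCCTTTTCAGGGCCgcccactcc
HIST1H4H, chr6:26285122-26285151, minus strand: ccaaaGGCCCTTTTCAGGGCCgcccacttt
HIST1H4I, chr6:27139649-27139678, plus strand: aaaaaGGCCCTTTTTAGGGCCcctaagctt

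A stem of 6 pairs closed by a loop of 4 bases was found in 32 members, starting 23 to 68 bases after the stop codon. The form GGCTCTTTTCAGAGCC was the commonest, in 17 members, and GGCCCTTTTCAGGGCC was found in 5, all of them H4 genes. Among the 18754 protein-coding genes with at least 100 annotated bases after a stop codon, 0.149% held the stem-loop in the first 100 bases. These were 27 of 29 members and 1 of 18725 other genes, H2AFX, the gene of the DNA-damage histone H2A.X.

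What the annotation takes as the end of each gene decides which reads could be counted, and the members differ in this. For 35 members the annotation stops at the stop codon, for 9 it ends within 100 bases of the stem-loop, and for 23 it runs on further. Among the 9, HIST1H2BD also has a transcript with 384 bases after the stop codon, so it counts as long-ended below. Another 3 members were too short to search, and HIST1H2BJ had no stem-loop in the first 100 bases. The longest annotated 3′ UTR was 126 bases or less in 46 members, called short-ended here, and 261 bases or more in 25 members, called long-ended here. No member lay in between, and the division was made after the values had been seen, so it is used as a description only. All 6 H1 genes were short-ended, as were 14 of 17 H2A genes, 7 of 18 H2B genes, 10 of 15 H3 genes and 9 of 15 H4 genes. Long-ended members held 50.1% of all member counts.

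Promoters were read from the RefSeq table on GRCh38.p14 for the 61 members that matched an entry to show what members of a class share. The 250 bases before the annotated start of 4 members are printed in the direction of transcription, with the motifs that were searched in capitals.
HIST1H1C, chr6:26056471-26056720, minus strand: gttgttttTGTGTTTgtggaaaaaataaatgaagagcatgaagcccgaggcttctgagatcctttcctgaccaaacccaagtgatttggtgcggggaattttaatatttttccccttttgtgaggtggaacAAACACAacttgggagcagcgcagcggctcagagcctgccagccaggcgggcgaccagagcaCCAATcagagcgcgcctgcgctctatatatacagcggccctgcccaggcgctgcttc
HIST1H2AG, chr6:27132793-27133042, plus strand: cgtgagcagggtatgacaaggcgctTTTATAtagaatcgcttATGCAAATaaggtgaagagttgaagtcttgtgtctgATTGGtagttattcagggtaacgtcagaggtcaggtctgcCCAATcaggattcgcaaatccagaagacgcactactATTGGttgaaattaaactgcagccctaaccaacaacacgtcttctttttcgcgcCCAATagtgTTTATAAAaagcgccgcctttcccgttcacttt
HIST1H3H, chr6:27809801-27810050, plus strand: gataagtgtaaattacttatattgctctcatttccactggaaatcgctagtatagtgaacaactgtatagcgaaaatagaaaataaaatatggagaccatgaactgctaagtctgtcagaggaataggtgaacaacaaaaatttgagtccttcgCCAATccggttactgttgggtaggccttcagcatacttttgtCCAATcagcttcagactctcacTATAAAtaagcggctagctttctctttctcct
HIST1H4I, chr6:27139032-27139281, plus strand: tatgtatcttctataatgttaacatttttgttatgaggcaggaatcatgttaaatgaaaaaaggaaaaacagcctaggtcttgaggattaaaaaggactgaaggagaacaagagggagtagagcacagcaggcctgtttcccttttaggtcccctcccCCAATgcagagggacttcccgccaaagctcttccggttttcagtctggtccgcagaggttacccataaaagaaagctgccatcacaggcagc

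The motifs were the octamer ATTTGCAT, the TATA box TATAAA, the CCAAT box CCAAT and the H1 box AAACACA, each on either strand. The octamer was found in 34.4% of the 61 member promoters and in 1.66% of 27305 RefSeq promoters, and its members were 11 of 16 H2A genes, 9 of 13 H2B genes and 1 of 13 H3 genes. The H3 gene was HIST1H3D, whose window was the same stretch as that of HIST1H2AD. Windows of head-to-head genes can overlap, as those of HIST1H2AA and HIST1H2BA do, so a site can be counted more than once. The H1 box was found in 6 of 6 H1 genes and in 4.95% of all promoters, where no other class held it. The CCAAT box was found in 83.6% of members against 33.0% of all promoters, and TATAAA in 67.2% against 11.1%. By class the CCAAT box was in 100% of the H1, H2A, H2B and H3 promoters. It was in only 3 of 13 H4 promoters (23.1%), among them that of HIST1H4I printed above. A match of letters is a description of the window and no measure of binding.

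For 14 members, more than 50% of the 150-base words in their transcripts also occurred in another gene, so their counts are uncertain. They included HIST2H4A with HIST2H4B, HIST2H2AA3 with HIST2H2AA4, HIST2H3A with HIST2H3C, HIST1H4J with HIST1H4K, and HIST1H2AI with HIST1H2AJ. Some members also overlap a neighbour. All exon bases of HIST1H2AK lie under HIST1H2BN on the opposite strand, and HIST1H2AK was at 0 in every library. HIST1H2AM and HIST1H3J overlap on the same strand, as do HIST1H2AD and HIST1H3D with the gene AL031777.3.

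Of the 71 members, 3 were at 0 in every library and 55 passed the filter on low counts, with 20821 genes tested in all. The 16 members that did not pass had a mean of at most 7.42 counts per library. Those that passed were all 6 H1 genes, 12 of 17 H2A genes, 16 of 18 H2B genes, 10 of 15 H3 genes and 11 of 15 H4 genes. Levels are given as CPM, counts per 1000000 counts of the library, scaled by the trimmed mean of M-values (TMM), and a count of 3 in a library corresponded to 0.0594 to 0.0897 CPM of its total. Adjusted p-values are those of the quasi-likelihood test of edgeR, adjusted over the 20821 genes by the method of Benjamini and Hochberg, and a gene was called at an adjusted p under 0.05.

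Histone mRNA was a small part of every library and its share differed with nilotinib. Members took 0.179% to 0.227% of the counts in mock DMSO cells and 0.146% to 0.195% in hemin DMSO cells. They took 0.395% to 0.405% in mock nilotinib cells and 0.339% to 0.363% in hemin nilotinib cells. The nilotinib libraries did not overlap the DMSO libraries, with or without hemin.

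A few genes made up most of this signal. HIST1H1C, an H1 linker histone, alone took 31.0% of the member counts, and the 5 most counted members took 61.9%. Per kilobase of gene model, HIST1H1C averaged 1357 CPM, HIST1H2BK 955 CPM, HIST3H2A 198 CPM and HIST1H2AC 113 CPM. HIST1H4H stood at 32.2 CPM per kilobase and HIST1H3E at 1.51 CPM per kilobase. These levels depend on how the libraries were selected, which is not given in the sources used here. Of the noncoding RNAs without a poly(A) tail that were listed for comparison, RN7SK, RN7SL1, RMRP and RPPH1 were at 0 in all libraries, whereas RN7SL2 averaged 37.7 CPM. VTRNA1-1, a vault RNA, was at or under 3 counts in each mock library, at 0.674, 0.606 and 1.65 CPM in hemin DMSO cells and at 0.172, 0.110 and 0.280 CPM in hemin nilotinib cells. It was called higher with hemin in the absence of nilotinib (adjusted p = 3.29e-05) and lower with nilotinib in hemin-treated cells (log2 fold change -2.35, adjusted p = 2.34e-03), as were HIST2H2AC and HIST1H4C among the scarce histone genes described later. The more abundant RN7SL2 had log2 fold changes of the opposite sign in these comparisons (-0.66 and 0.58) and was not called in either. The part of these noncoding RNAs in the histone values was not tested.

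Summed by class, every class was higher in nilotinib than in DMSO in the absence of hemin. The H1 sum was 586 ± 54.8 CPM (SD, n = 3) in mock DMSO cells and 1251 ± 35.8 in mock nilotinib cells. H2A went from 387 ± 30.9 to 944 ± 87.2, H2B from 627 ± 50.7 to 1136 ± 24.2, H3 from 91.4 ± 11.5 to 235 ± 9.55, and H4 from 222 ± 20.6 to 295 ± 3.43. The 3 libraries of one group lay above the 3 of the other in all 5 classes.

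With hemin, the H1 sum was 686 ± 191 CPM in DMSO and 1003 ± 171 in nilotinib, and these groups overlapped. H2A stood at 275 ± 26.8 in hemin DMSO cells and 757 ± 98.4 in hemin nilotinib cells, 2.75 times as high. H2B was 697 ± 106 against 1135 ± 91.9, H3 was 86.7 ± 6.42 against 276 ± 33.1, a ratio of 3.18, and H4 was 195 ± 21.9 against 306 ± 7.42. The groups did not overlap in these 4 classes. Sums are dominated by their most abundant genes and were not tested.

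Nilotinib in hemin-treated cells raised most histone genes. Of the 55 members tested, 38 were higher and 4 were lower in hemin nilotinib than in hemin DMSO cells, where 32.4% of all genes tested were called higher and 31.8% lower. The median log2 fold change of the members was 1.04 and that of all genes was 0.02. Higher were 4 of 6 H1 genes, 6 of 12 H2A genes, 12 of 16 H2B genes, 7 of 10 H3 genes and 9 of 11 H4 genes.

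Among the H2A genes, HIST1H2AG (chr6:27133042-27135291) was at 44.0, 43.7 and 42.4 CPM in hemin DMSO cells and at 204, 229 and 226 CPM in hemin nilotinib cells. Its log2 fold change was 2.34 (SE 0.14, adjusted p = 1.89e-09). HIST1H2AI, of which 51.7% of the words occur in other genes, was at 18.8, 18.3 and 17.8 CPM against 75.6, 97.5 and 90.8 CPM, or 2.26 on the log2 scale (SE 0.15, adjusted p = 2.82e-09). The groups did not overlap in either gene.

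HIST1H2AC (chr6:26124145-26139116) had the highest mean CPM of the H2A genes over the 12 libraries, though HIST3H2A was higher per kilobase. HIST1H2AC was at 54.5, 78.3 and 71.2 CPM without nilotinib and at 213, 227 and 181 CPM with it. Its log2 fold change was 1.61 (SE 0.16, adjusted p = 4.21e-07). HIST3H2A (chr1:228456979-228457873) was at 106, 130 and 109 CPM against 130, 258 and 227 CPM. The lowest nilotinib library, replicate 1, fell at the level of the highest DMSO library, and the difference was 0.84 on the log2 scale (SE 0.20, adjusted p = 1.63e-03). HIST1H2AE did not pass the test, at 20.7, 25.0 and 18.3 CPM against 26.2, 27.0 and 26.7 CPM, which differ by 0.32 on the log2 scale (adjusted p = 0.101).

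Among H2B genes, HIST1H2BF (chr6:26199520-26200715) rose most of all members with a mean of at least 100 counts. It was at 8.03, 6.64 and 8.90 CPM in hemin DMSO cells and at 29.1, 50.5 and 62.8 CPM in hemin nilotinib cells, or 2.59 on the log2 scale (SE 0.25, adjusted p = 2.39e-07). HIST1H2BJ was at 37.6, 41.3 and 34.1 CPM against 153, 129 and 102 CPM, and HIST2H2BE was at 46.3, 62.7 and 65.7 CPM against 178, 209 and 167 CPM. Their log2 fold changes were 1.76 and 1.67, and in both genes every nilotinib library stood above every DMSO library. HIST1H2BD rose by 1.04 and HIST1H2BN by 0.61 on the log2 scale.

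HIST1H2BK (chr6:27146418-27146798), the most abundant core histone gene per kilobase, was an exception. It was at 357, 519 and 334 CPM in hemin DMSO cells and at 522, 362 and 280 CPM in hemin nilotinib cells, and its log2 fold change was -0.06 (SE 0.20, adjusted p = 0.822). HIST1H2BL was at 5.85, 6.29 and 7.33 CPM against 3.56, 7.47 and 9.00 CPM, which differ by 0.04 on the log2 scale (adjusted p = 0.898). In both genes the groups overlapped.

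The H3 gene HIST1H3H (chr6:27810064-27811300) was at 50.1, 57.4 and 53.4 CPM without nilotinib and 207, 242 and 228 CPM with it, or 2.07 on the log2 scale (SE 0.13, adjusted p = 1.92e-09). HIST1H3E, at a far lower level, was at 0.766, 1.53 and 1.80 CPM against 3.28, 4.86 and 5.03 CPM, or 1.68 on the log2 scale (SE 0.28, adjusted p = 8.68e-05). HIST1H3B and HIST1H3J did not pass the test, with log2 fold changes of 0.45 and -0.29. HIST3H3, the testis H3 gene, was named after its values were seen: it was at 0.521, 0.415 and 0.609 CPM against 2.01, 2.58 and 4.21 CPM (log2 fold change 2.50, adjusted p = 7.64e-06).

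The H4 genes encode an almost invariant protein, and their mRNAs moved by different amounts. HIST1H4E was at 6.74, 9.35 and 10.8 CPM in hemin DMSO cells and at 25.0, 30.5 and 47.2 CPM in hemin nilotinib cells (log2 fold change 1.93, SE 0.22). HIST1H4D went from 1.72, 1.88 and 2.46 CPM to 4.40, 5.63 and 8.81 CPM (1.63, SE 0.26). HIST1H4H (chr6:26277609-26285638) rose from 34.3, 34.5 and 50.4 CPM to 69.2, 63.3 and 70.4 CPM (0.77, SE 0.15, adjusted p = 2.90e-04). HIST1H4K, which cannot be counted apart from HIST1H4J, rose by 0.74. HIST1H4I, the most abundant H4 gene, was at 118, 159 and 111 CPM against 187, 164 and 151 CPM, so the groups overlapped, and its log2 fold change of 0.37 had an adjusted p of 0.0296. It did not pass the test in 11 of 17 alternative settings, among them DESeq2 (0.33) and the fit without hemin DMSO replicate 3 (0.27).

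The linker histones differed among themselves. HIST1H1C (chr6:26055787-26056428) was at 482, 856 and 677 CPM in hemin DMSO cells and at 1170, 975 and 831 CPM in hemin nilotinib cells, so the groups overlapped, and it rose by 0.56 on the log2 scale (SE 0.19, adjusted p = 0.0146). HIST1H1C did not pass the test in 6 of 17 alternative settings. Without hemin DMSO replicate 1 its log2 fold change was 0.37 (adjusted p = 0.0793). HIST1H1D (mean 1.73 CPM) and HIST1H1T (1.95 CPM) rose by 0.82 and 1.16, and HIST1H1D did not pass in 5 of the 17. HIST1H1E (chr6:26156354-26157107) went the other way, from 6.34, 12.9 and 9.41 CPM to 6.07, 2.36 and 1.87 CPM, and fell by 1.48 on the log2 scale (SE 0.40, adjusted p = 4.04e-03).

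Only 3 other members were called lower, and all 3 were scarce: HIST2H2AC, HIST1H4C and HIST1H3G. HIST2H2AC was at 2.18, 2.30 and 1.98 CPM in hemin DMSO cells and at 0.230, 0.220 and 0.304 CPM in hemin nilotinib cells. HIST1H4C was at 3.34, 3.10 and 2.28 CPM against 0.460, 1.15 and 1.05 CPM. HIST1H3G was at 0.368, 0.574 and 0.786 CPM in hemin DMSO cells and at or under 3 counts in each hemin nilotinib library, which makes it at least 6.68-fold lower against a floor of 3 counts per library. These 3 genes were chosen after their values were seen.

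**Figure D1:**
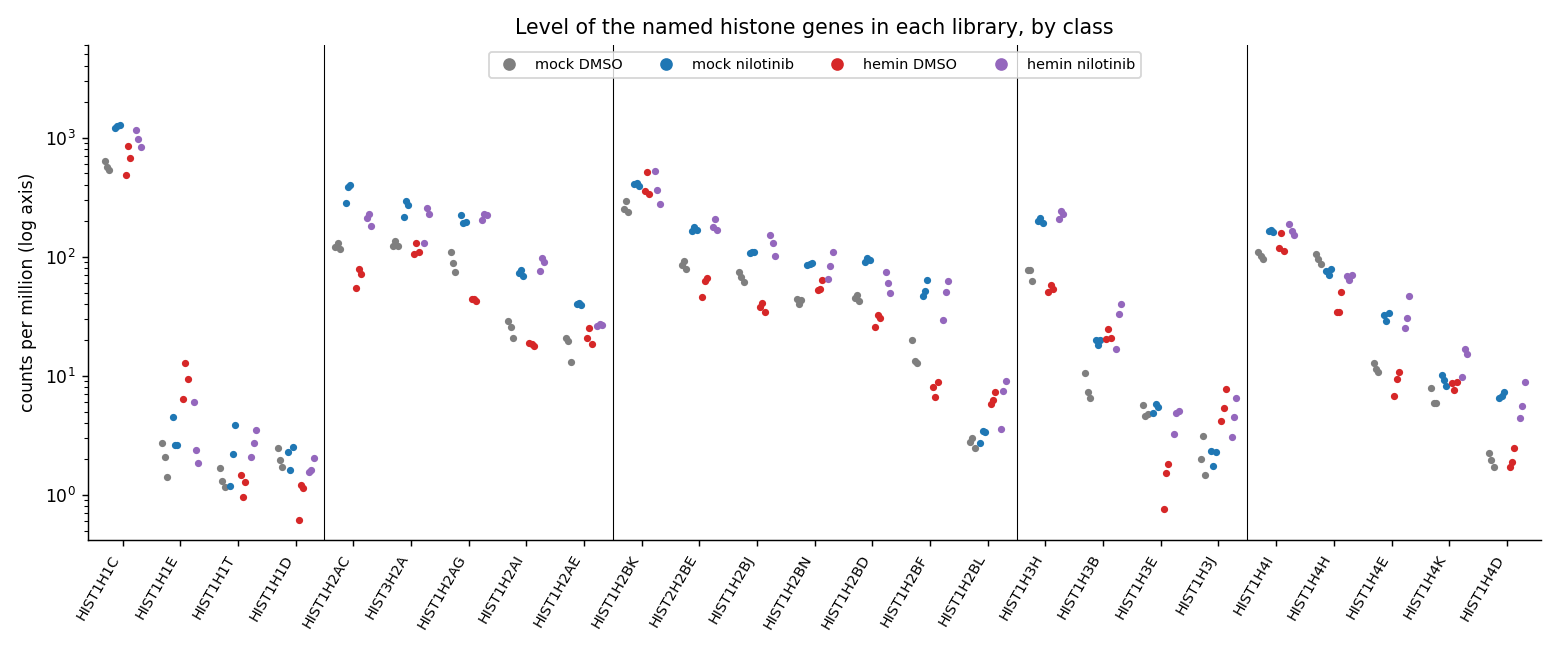
Level in CPM (y axis, log scale) of the named histone genes (x axis, ordered by class and level) in each of the 12 libraries, coloured by group. The nilotinib libraries (blue, purple) all stand above the DMSO libraries (grey, red) in genes such as HIST1H2AG and HIST1H3H, while HIST1H1E is highest in hemin DMSO cells and HIST1H2BK overlaps between the hemin groups.

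Nilotinib without hemin raised members of every class. Against mock DMSO cells, 34 of the 55 members were higher in mock nilotinib cells and 0 were lower, where 20.7% of all genes tested were called higher and 21.8% lower. At an unadjusted p under 0.05 HIST1H4H was lower (log2 fold change -0.35, unadjusted p = 0.0283, adjusted p = 0.0633), and DESeq2 called 0 members lower. The member median was 1.05 and the median of all genes was 0.00. Higher were 2 of 6 H1 genes, 9 of 12 H2A genes, 13 of 16 H2B genes, 4 of 10 H3 genes and 6 of 11 H4 genes.

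HIST1H1C was at 639, 564 and 536 CPM in mock DMSO cells and at 1201, 1253 and 1271 CPM in mock nilotinib cells, or 1.10 on the log2 scale (SE 0.19, adjusted p = 1.92e-04). HIST1H2AC was at 120, 130 and 117 CPM against 283, 389 and 401 CPM (1.55, SE 0.16). HIST3H2A went from 123, 136 and 122 CPM to 217, 296 and 274 CPM (1.04, SE 0.20). In each of these genes all nilotinib libraries were above all DMSO libraries.

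HIST1H2BF again had the largest rise of the members with a mean of at least 100 counts, from 19.8, 13.3 and 12.9 CPM to 47.1, 51.9 and 63.2 CPM (1.82, SE 0.24, adjusted p = 1.67e-05). HIST1H4D came next, from 2.23, 1.96 and 1.73 CPM to 6.57, 6.80 and 7.27 CPM (1.80, SE 0.26). HIST1H2BK, which was not called with nilotinib in the presence of hemin, was at 252, 292 and 236 CPM against 408, 417 and 390 CPM here, with no overlap (0.64, SE 0.20, adjusted p = 0.0183), though the difference between these fold changes did not pass the test (adjusted p = 0.0778). The rise of HIST1H2BK without hemin did not pass the test in 6 of 17 alternative settings. HIST1H3H went from 77.4, 77.5 and 63.0 CPM to 199, 213 and 192 CPM (1.47, SE 0.13).

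HIST1H3E was at 5.65, 4.63 and 4.77 CPM in mock DMSO cells and at 4.92, 5.83 and 5.45 CPM in mock nilotinib cells, so the groups overlapped and the log2 fold change was 0.11 (adjusted p = 0.775). HIST1H4H was at 105, 96.4 and 86.7 CPM against 76.5, 70.1 and 78.9 CPM, the only tested member in which every nilotinib library lay below every DMSO library. In all, 25 members were called higher with nilotinib both with and without hemin, which is 65.8% of those higher with hemin and 73.5% of those higher without. These shares stand beside 38 of 55 members called higher with hemin and 34 of 55 without. Whether the overlap exceeds what such counts give was not tested.

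Whether nilotinib changed a histone gene by a different amount with hemin was tested as the difference of the fold changes. Here too, hemin cannot be told apart from the additional time in culture. This difference was higher with hemin for 10 members and lower for 6, where 17.1% of all genes tested were higher and 13.0% lower, so the counts over the members lay close to those over all genes. The median over the members was 0.09 and over all genes 0.06.

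With libraries scaled by their totals alone the calls over all genes went from 3558 higher and 2713 lower to 4799 higher and 1752 lower, and those over the members to 11 and 4. Without hemin nilotinib replicate 3, 10 members were lower.

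The genes called divided by their annotated 3′ end. Of the 23 long-ended members tested, 9 had a higher value with hemin and the other 14 did not pass the test. Of the 32 short-ended members, 1 had a higher and 6 a lower value. The largest differences among members with a mean of at least 100 counts were those of HIST1H3E (1.57, SE 0.39, adjusted p = 6.51e-03) and HIST1H2AG (1.17, SE 0.20, adjusted p = 4.23e-04). The largest in the other direction were those of HIST1H1E (-2.13, SE 0.57, adjusted p = 0.0105) and HIST1H2AE (-0.86, SE 0.23, adjusted p = 0.0116).

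**Figure D2:**
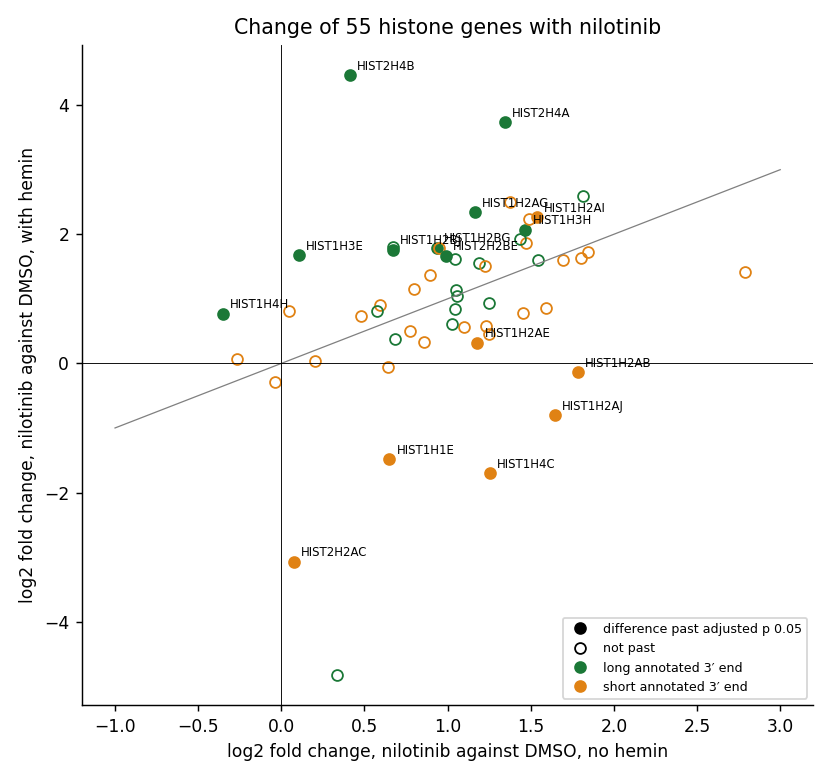
Log2 fold change of the 55 tested histone genes with nilotinib in the absence (x axis) and presence (y axis) of hemin, with the grey line where both are equal. Filled points are the 16 genes whose difference passed an adjusted p of 0.05: 9 of the 10 above the line are long-ended (green), and the 6 below it are short-ended (orange).

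Hemin in cells without nilotinib moved histone genes in both directions. Against mock DMSO cells, 19 of the 55 members were higher and 15 lower in hemin DMSO cells, where 25.7% of all genes tested were called higher and 27.8% lower. The member median was 0.22 and that of all genes -0.05. With libraries scaled by their totals alone, the median of all genes was -0.29, the split of all calls went from 5360 higher and 5796 lower to 3881 higher and 7578 lower, and the member median became -0.03 with 13 higher and 18 lower. Relative to all genes the member median was 0.27 and 0.26 under the respective scalings.

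Long-ended members fell for the most part. Of 23 tested, 2 were higher and 13 lower, with a median of -0.56, and under library totals alone 1 was higher and 15 lower. HIST1H4H fell most among the abundant ones, from 105, 96.4 and 86.7 CPM in mock DMSO cells to 34.3, 34.5 and 50.4 CPM in hemin DMSO cells, which is -1.27 on the log2 scale (SE 0.15, adjusted p = 3.85e-06). HIST1H2AG fell from 110, 88.0 and 74.4 CPM to 44.0, 43.7 and 42.4 CPM (-1.06, SE 0.14), and HIST1H3E fell from 5.65, 4.63 and 4.77 CPM to 0.766, 1.53 and 1.80 CPM (-1.87, SE 0.28, adjusted p = 4.70e-05). In these genes every hemin library lay below every mock library.

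HIST1H2AC (-0.85), HIST1H2BJ (-0.86), HIST1H2BF (-0.96), HIST2H2BE (-0.56), HIST1H2BD (-0.60) and HIST1H3H (-0.44) fell as well. The long-ended exceptions were HIST1H2BN and HIST1H3G. HIST1H2BN rose by 0.42 (adjusted p = 0.0317) and did not pass the test in 7 of 17 alternative settings, library totals alone (0.19) among them. HIST1H3G was at or under 3 counts in every mock DMSO library and at 0.368, 0.574 and 0.786 CPM in hemin DMSO cells, at least 8.05-fold higher against a floor of 3 counts per library. HIST1H4I was at 110, 102 and 94.9 CPM against 118, 159 and 111 CPM and did not pass the test (0.34, adjusted p = 0.0556).

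Short-ended members went up for the most part. Of 32 tested, 17 were higher and 2 lower, with a median of 0.88, and under library totals alone 12 were higher and 3 lower. HIST1H1E rose from 2.72, 2.10 and 1.40 CPM to 6.34, 12.9 and 9.41 CPM (2.20, SE 0.41, adjusted p = 2.89e-04). HIST1H3B rose from 10.5, 7.35 and 6.57 CPM to 20.5, 24.7 and 20.7 CPM (1.43, SE 0.25, adjusted p = 1.84e-04). HIST1H2BL rose from 2.77, 3.01 and 2.50 CPM to 5.85, 6.29 and 7.33 CPM (1.24, SE 0.28), and HIST1H3J rose by 1.39.

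HIST1H2BK rose from 252, 292 and 236 CPM to 357, 519 and 334 CPM (0.63, SE 0.20, adjusted p = 0.0153). It did not pass the test in 7 of 17 alternative settings, library totals alone (0.38) among them. HIST1H1C did not pass the test, at 639, 564 and 536 CPM against 482, 856 and 677 CPM (0.21, adjusted p = 0.353). The short-ended members that fell were HIST1H2AI (-0.46) and HIST1H1D (-1.06). The largest rises were in scarce genes: HIST2H2AC went from 0.126, 0.143 and 0.0961 CPM to 2.18, 2.30 and 1.98 CPM (4.12, SE 0.43), and HIST1H4B from 0.198, 0.143 and 0.135 CPM to 1.78, 1.98 and 1.39 CPM (3.40, SE 0.51). The latter were named after their values were seen.

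Level and annotated end are tied to each other in these data. Of the members with a mean of at least 10 CPM, 18 were long-ended, of which 10 fell and 1 rose, and 6 were short-ended, of which 1 fell and 3 rose. Of those under 10 CPM, 5 were long-ended, of which 3 fell and 1 rose, and 26 were short-ended, of which 1 fell and 14 rose. The part of level in the difference between short and long ends was not tested.

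**Figure D3:**
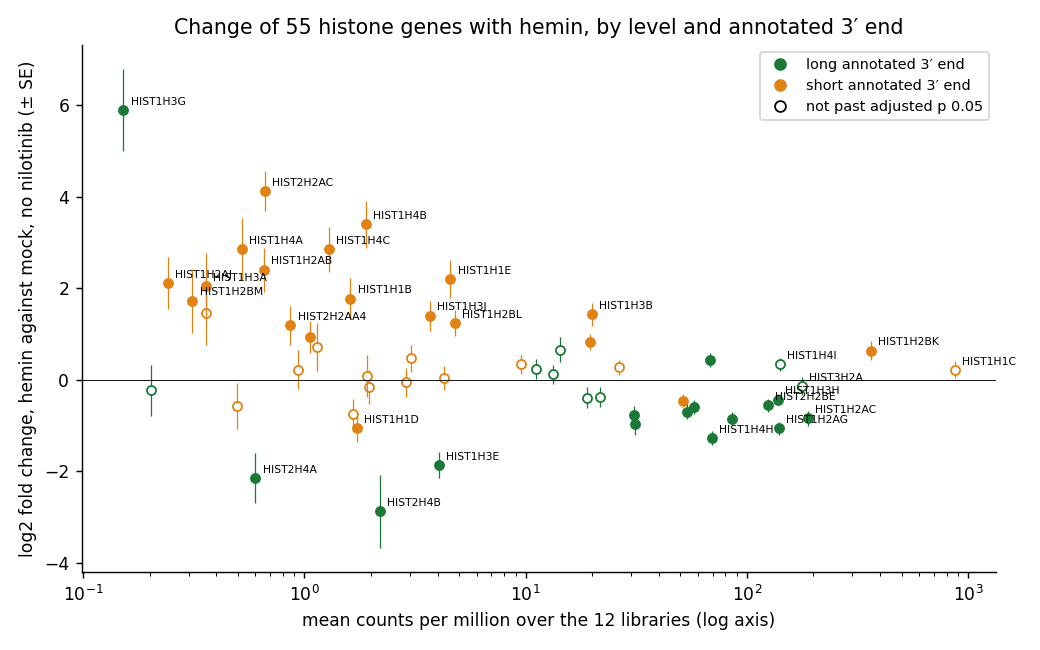
Log2 fold change with hemin in cells without nilotinib (y axis, bars ± SE from the fit) against mean level over the 12 libraries (x axis, CPM, log scale) for 55 histone genes. Long-ended genes (green) lie mostly below 0, with HIST1H4H at -1.27 and HIST1H3G as the exception at the left, and short-ended genes (orange) mostly above 0, with HIST2H2AC at 4.12.

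An H2A and an H2B gene often share a promoter region and are read from it in opposite directions. Of 12 head-to-head pairs with starts within 1000 bases, 11 joined an H2A to an H2B gene. Both genes were tested in 9 pairs, 8 of them of H2A with H2B and the other HIST1H3J with HIST1H2BO. Pairs are counted here and below by genes called. With nilotinib and no hemin both genes were called higher in 5 of 9 pairs, where 34 of 55 members were called higher. As 0 members were called lower there, a pair called in opposite directions could not occur. By sign alone HIST1H2AJ and HIST1H2BM differed (1.64 and -0.27), as did HIST1H3J and HIST1H2BO (-0.04 and 0.86). With hemin and no nilotinib, where 19 of 55 members were called higher and 15 lower, both rose in 2 pairs and both fell in 2. They were called in opposite directions in 2.

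HIST1H2BJ and HIST1H2AG, whose starts lie 292 bases apart around the promoter printed above, fell together with hemin (-0.86 and -1.06), as did HIST1H2BC and HIST1H2AC (-0.77 and -0.85), 219 bases apart. HIST2H2BE and HIST2H2AC, 323 bases apart, went in opposite directions (-0.56 and 4.12), and so did HIST1H2BL and HIST1H2AI (1.24 and -0.46), 268 bases apart. With nilotinib in hemin-treated cells 38 of 55 members were called higher and 4 lower. Both genes were called higher in 3 of 9 pairs, HIST1H2BJ with HIST1H2AG (1.76 and 2.34), HIST1H2BC with HIST1H2AC (1.55 and 1.61) and HIST3H2A with HIST3H2BB (0.84 and 1.14). They were called in opposite directions in 1, where HIST2H2BE rose by 1.67 and HIST2H2AC fell by 3.07 on the log2 scale. By sign alone HIST1H2AJ and HIST1H2BM also differed (-0.81 and 0.06), as did HIST1H2BK and HIST1H2AH (-0.06 and 0.51). The same held for HIST1H3J and HIST1H2BO (-0.29 and 0.33).

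In nilotinib-treated cells hemin left most histone genes without a call. Of the 55 members, 4 were higher and 3 lower in hemin nilotinib than in mock nilotinib cells, where 3.52% of all genes tested were called higher and 2.28% lower, and the member median was 0.20 against 0.03 for all genes. HIST1H2AC was lower, at 213, 227 and 181 CPM against 283, 389 and 401 CPM (-0.79, SE 0.16, adjusted p = 0.0121), as was HIST1H2BD, at 74.2, 59.9 and 50.0 CPM against 89.6, 97.3 and 93.4 CPM (-0.61, SE 0.14, adjusted p = 0.0236). HIST1H2AE fell by 0.59 (adjusted p = 0.0449). Of 17 alternative settings, HIST1H2AC did not pass the test in 4, HIST1H2BD in 6 and HIST1H2AE in 10.

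HIST1H2BL was higher, at 3.56, 7.47 and 9.00 CPM against 2.71, 3.41 and 3.40 CPM (1.07, SE 0.28, adjusted p = 0.0343). It did not pass the test in 8 of 17 alternative settings. The other members called higher were HIST1H4A (mean 0.520 CPM), HIST1H4B (1.89 CPM) and HIST1H2AL (1.06 CPM), and they were named after their values were seen. Same-numbered libraries of these groups deviated together. With the number as a block the counts were 5 higher and 3 lower, the addition being HIST1H2BH (0.82, adjusted p = 0.0432). Hemin nilotinib replicate 1 was the lowest of its group in HIST1H3B, HIST1H2BL, HIST1H4B and HIST1H2BF, and without it 13 members were higher and 3 lower. Without mock nilotinib replicate 3 the count of members higher was 0, and without mock nilotinib replicate 2 the count of members lower was 0. Library totals alone turned the calls over all genes from 733 higher and 475 lower to 527 higher and 545 lower, and those over the members to 2 and 3.

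Genes that act with the replication-dependent histones were read from fixed lists. Most replication-independent histones are made throughout the cell cycle from polyadenylated mRNAs, though H2AFX on this list holds the stem-loop. With nilotinib in hemin-treated cells, where 32.4% of all genes were called higher and 31.8% lower, 4 of 9 tested were higher and 2 lower. H3F3A and H3F3B, which encode the same H3.3 protein, went apart: H3F3A rose from 370, 568 and 398 CPM to 934, 790 and 608 CPM (0.80, SE 0.18), and H3F3B fell from 487, 582 and 525 CPM to 237, 190 and 153 CPM (-1.46, SE 0.18). H2AFX, the only non-member with the stem-loop, rose from 279, 259 and 285 CPM to 491, 529 and 466 CPM (0.85, SE 0.12).

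The genes of histone gene transcription and mRNA processing moved in both directions, with 5 of 14 tested higher and 4 lower in the same comparison, shares near those over all genes. SLBP, the stem-loop binding protein, was at 178, 146 and 128 CPM in hemin DMSO cells and at 176, 137 and 111 CPM in hemin nilotinib cells, and did not pass the test in any comparison, where its adjusted p ran from 0.244 to 0.872. NPAT, the coactivator of histone genes in S phase, rose from 27.0, 16.0 and 20.3 CPM to 54.6, 52.1 and 41.9 CPM (1.23, SE 0.17, adjusted p = 1.07e-05). ZNF473, a zinc finger protein that takes part in histone pre-mRNA processing with the U7 particle, fell from 158, 171 and 128 CPM to 31.8, 31.7 and 32.3 CPM (-2.26, SE 0.18), and LSM10, a subunit of that particle, fell by 0.72.

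Histone chaperones were higher in 7 of 13 cases and lower in 1. CHAF1A, the large subunit of chromatin assembly factor 1, rose from 70.5, 57.2 and 62.6 CPM to 192, 151 and 129 CPM (1.31, SE 0.14), and ASF1B rose by 1.37. Of 20 DNA synthesis genes 14 were higher, against 32.4% of all genes, and 1, CDC6, was lower. PCNA, the sliding clamp, rose from 46.6, 43.5 and 38.4 CPM to 248, 146 and 89.9 CPM (1.91, SE 0.25), and RRM2, a subunit of ribonucleotide reductase, rose by 2.29.

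The same lists with hemin in the absence of nilotinib, where 25.7% of all genes were higher and 27.8% lower, gave 2 of 20 DNA synthesis genes higher and 13 lower, with a median of -0.64, and 3 of 13 chaperones higher and 5 lower. PCNA fell by 1.51 and CHAF1A by 1.13 on the log2 scale. Of the genes for transcription and processing, 2 of 14 were higher and 4 lower: NPAT fell by 0.63, and ZNF473 rose from 23.8, 28.4 and 24.5 CPM to 158, 171 and 128 CPM (2.58, SE 0.19). Nilotinib without hemin, where 20.7% of all genes were higher, gave 5 of 20 DNA synthesis genes higher and left the other 15 without a call, with a median of 0.38 beside 1.05 for the histone genes. Hemin in nilotinib-treated cells gave 1 of 20 DNA synthesis genes lower and left the other 19 without a call.

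The labelled cell line was checked against its markers. The K562 genes GATA1, TAL1, LMO2, HBG1 and HBG2 were present in all libraries, and each of these was called higher with nilotinib in hemin-treated cells. Markers of other cell types summed to 45.8 to 111 CPM over the 12 libraries. Of these, CD14 rose from a group mean of 0.497 CPM in mock DMSO to 9.40 CPM in hemin DMSO cells, and CD3E did not pass the filter. Their part in the histone values was not tested.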

How the data were processed

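RNA-seq of K562 cells was analysed from the table of read counts per gene that the authors deposited, whole numbers for 58735 genes in 12 libraries. The submitters' processing notes name DESeq, DESeq2 and GRCh38.p12. The aligner, the library selection and the strandedness are not given in the sources used here. The authors also deposited FPKM values per library, which are counts per kilobase over a scaled library size and served as an alternative only, and group means of FPKM, which were not used. Columns of no sample of the series numbered 0. Groups were taken from the sample titles. The submitters call the replicates biological, and p-values measure the spread between them.

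The function filterByExpr removed genes with few counts (settings 10 for the count and 15 for the total), libraries were scaled by TMM, and all 12 libraries entered 1 model with a mean for each group in edgeR 4.0.16 (R 4.3.3), tested by quasi-likelihood with adjustment over 20821 genes. Comparisons, including the difference of the nilotinib effects, were 5 in number. DESeq2 1.42.0, limma 3.58.1 on log2 FPKM, other scalings and filters, a replicate block and each library left out were alternatives. The code was tested on simulated data. Figures and summaries used Python 3.11.15, numpy 2.4.6, pandas 2.3.3 and matplotlib 3.10.9.

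The members and the gene lists were chosen with earlier results of these data known. Values per library are printed for the 4 members of each class with the highest mean CPM and, in each comparison, for the 2 called members that rose most and the 2 that fell most, if they averaged 100 counts or more. Further genes come from fixed lists. Gene positions and transcripts are from GENCODE 29, in which all 71 members had the same start and end as in the count table, and promoters are from RefSeq. Deviations of same-numbered libraries were most alike in the comparison of hemin nilotinib with mock nilotinib cells (correlations 0.263, 0.199 and 0.254). The replicate block is therefore given beside that result. The correlations were 0.0948, 0.0869 and 0.0989 for nilotinib alone and 0.0989, 0.104 and 0.0849 for hemin alone. For nilotinib with hemin they were -0.00712, 0.0818 and 0.235. No pair of libraries of a group agreed within counting noise (chi-square over degrees of freedom from 13.7 to 252).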

Additional observations from a re-analysis of the deposited data

Results flagged for a closer look

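The effect of nilotinib differed between hemin and mock cells in 16 of the 55 members tested. The test was that of the difference itself (edgeR, adjusted over all genes). Of all genes 17.1% were higher and 13.0% lower, so the count is near that over all genes. The values are the log2 fold change with hemin less that without.

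Above 0 were HIST1H2AG at 1.17, HIST1H2AI at 0.73, HIST1H2BG at 0.86, HIST1H2BJ at 1.09, HIST2H2BE at 0.68, HIST1H3E at 1.57, HIST1H3H at 0.60 and HIST1H4H at 1.12. HIST2H4A at 2.39 and HIST2H4B at 4.06 belong to them too, but these near-identical copies share most of their sequence and cannot be counted apart with certainty.

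Below 0 were the linker histone gene HIST1H1E at -2.13 and the H2A genes HIST1H2AB at -1.92, HIST1H2AE at -0.86, HIST1H2AJ at -2.45 and HIST2H2AC at -3.15. The H4 gene HIST1H4C stood at -2.95. Of these 6, HIST1H1E and HIST1H2AE had a mean of at least 100 counts.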

How the results depend on the processing

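For the named genes that were called, 1175 values were computed under alternative settings, of which 1084 still passed in the same direction and 91 kept the direction but no longer passed. Calls that other named genes gained are not in this tally. The count of members lower with nilotinib in hemin-treated cells (4) was 2 under a filter of 10 counts in each library. Members lower with nilotinib alone (0) numbered 1 with the replicate block, 1 with only the libraries of the comparison, and 1 with both. For hemin without nilotinib, members higher (19) numbered 12 under that filter, and members lower (15) numbered 6 with a 2-fold change in addition. For hemin with nilotinib, members higher (4) numbered 7 by DESeq2, 2 by library totals alone, 11 with all genes of at least 1 count, 2 under the filter of 10 counts and 0 with only the libraries of the comparison, and members lower (3) numbered 0 with a 2-fold change in addition and 0 with only the libraries of the comparison. For the difference of the nilotinib effects, members higher (10) numbered 6 with a 2-fold change, and members lower (6) numbered 3 under the filter of 10 counts. The stricter filters test fewer genes, and otherwise the cause was not tested.

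Leaving out each library in turn gave 34 to 41 higher and 4 to 5 lower for nilotinib with hemin, 28 to 32 and 0 to 0 for nilotinib alone, 14 to 18 and 15 to 15 for hemin alone, 0 to 13 and 0 to 3 for hemin with nilotinib, and 9 to 13 and 5 to 10 for the difference. By library totals alone, mock nilotinib sums were 4007 CPM for all members, 1299 for H1, 1179 for H2B and 306 for H4, and hemin DMSO sums were 246 for H2A and 77.6 for H3. Without members that share over 50% of their words, H4 was 281 CPM in mock nilotinib and 282 in hemin nilotinib cells. Beyond hemin with nilotinib, most same-numbered libraries were less closely correlated. The replicate block gave 38 higher and 4 lower for nilotinib with hemin and 37 and 1 for nilotinib alone. It gave 21 and 16 for hemin alone, and 11 and 7 for the difference. Under the block 3 named genes gained a call: HIST1H4H with nilotinib alone (-0.36, adjusted p = 0.0496), HIST1H4I with hemin alone (0.33, adjusted p = 0.0430) and HIST1H2BK for the difference (-0.71, adjusted p = 0.0428). The 16 members that were not tested had too few counts, and the part of depth, shared sequence and overlap with neighbours in this was not tested.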
